A study of Homo sapiens with 6 samples.

Results

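The genes described here are 42 genes of glycolysis and of the response to low oxygen, taken by symbol from the 58884 genes of a deposited RNA-seq table of HL-60 cells. HL-60 is an established acute myeloid leukaemia cell line that carries a RAS mutation and has promyelocyte features. The 42 symbols were fixed by name, though with earlier results of these data known, and all 42 were found in the table. They fall into 6 roles: 7 regulators of hypoxia-inducible factor (HIF), 2 glucose transporters, 15 glycolytic enzymes, 2 PFKFB enzymes that set the level of a glycolytic activator, 7 genes of pyruvate and lactate handling, and 9 other known HIF targets.

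The study compared 3 libraries of cells carrying an EZH2 shRNA with 3 libraries of cells carrying a scrambled shRNA. Both populations were made by lentiviral transduction and puromycin selection, were kept free of puromycin for 2 days, and spent the last 24 hours in RPMI-1640 with 0.05% serum, so the controls share the vector, the selection and the serum withdrawal. The labels name a single EZH2 vector, do not say whether the stable cells are a clone or a pool, name no low-oxygen treatment, and do not say whether the libraries come from separate cultures. EZH2 is the catalytic subunit of Polycomb repressive complex 2, which methylates histone H3 at lysine 27.

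Glycolysis converts glucose to pyruvate in the cytosol, and lactate dehydrogenase then turns pyruvate into lactate. HIF is a pair of an alpha subunit (HIF1A or EPAS1) with ARNT. With oxygen present, the EGLN prolyl hydroxylases mark the alpha subunit, VHL binds it and it is degraded. Without oxygen it persists and activates glucose transporters, most glycolytic enzymes, lactate export and genes such as VEGFA. Most of this control acts on protein stability, which RNA levels do not measure. Leukaemic blasts, like many dividing cells, rely heavily on glycolysis.

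The libraries held 39717343 to 51622861 gene counts in the controls and 50809853 to 85074624 in the EZH2 shRNA libraries. EZH2 itself was at 148, 150 and 150 CPM (counts scaled to a common library size) in the controls and at 79.4, 83.2 and 77.2 in the EZH2 shRNA libraries, which is 53.5% of the control mean. MPO, a defining promyelocyte gene, was at 9292.5 to 10097 CPM in the controls and 9250.5 to 9649 CPM with EZH2 shRNA, while ELANE, another one, was at 0.22 CPM or less in all 6. Of the 7 tested of 8 promyelocyte markers, PRTN3 (log2 fold change 2.14), AZU1 (0.69) and CEBPE (0.38) rose and MS4A3 (-0.40) and CTSG (-0.22) fell. MS4A3 lies on chromosome 11, where most genes were lower. With that chromosome's median log2 fold change removed, MS4A3 was at -0.13 and did not pass the test. Summed CPM over 6 eosinophil markers was 5.73 to 6.20 in the controls and 136 to 154 with EZH2 shRNA, and 4 of the 6 (EPX, PRG2, CLC and IL5RA) passed the test as higher. Summed levels ran from 0.345 to 0.448 against 0.964 to 1.10 CPM for 6 monocyte markers, from 1.74 to 2.07 against 3.19 to 3.77 for 6 erythroid markers and from 0.278 to 0.660 against 0.821 to 0.989 for 4 lymphoid markers. Mitochondrially encoded genes took 3.23 to 3.28% of counts in the controls and 3.62 to 4.01% with EZH2 shRNA. The part of these shifts in the results below was not tested, and in bulk RNA a change in the share of cells cannot be told apart from a change per cell.

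Across the 42 genes there was no common direction. Levels are given as CPM scaled by edgeR's TMM factors, fold changes as log2 of EZH2 shRNA over control, and a gene is called higher or lower when its Benjamini-Hochberg adjusted p from edgeR's quasi-likelihood test over all 16859 genes tested is under 0.05. Of the 42 genes, 39 had enough counts to be tested: 12 rose, 18 fell and 9 did not pass. Over all genes tested, 23.8% were called higher and 22.9% lower, 46.7% in all. Among the 10986 genes with a mean log2 CPM over 2, a level that 34 of the 39 reached, the shares were 27.2% higher and 30.0% lower, and the 34 gave 10 higher and 17 lower. The median log2 fold change of the 39 was -0.06, against 0.01 for all genes tested. Groups did not overlap for 32 of the 39, 14 higher and 18 lower, against 54.9% of all genes. Most changes were small: only EPAS1 and ADM changed by at least 1 on the log2 scale.

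**Figure D1:**
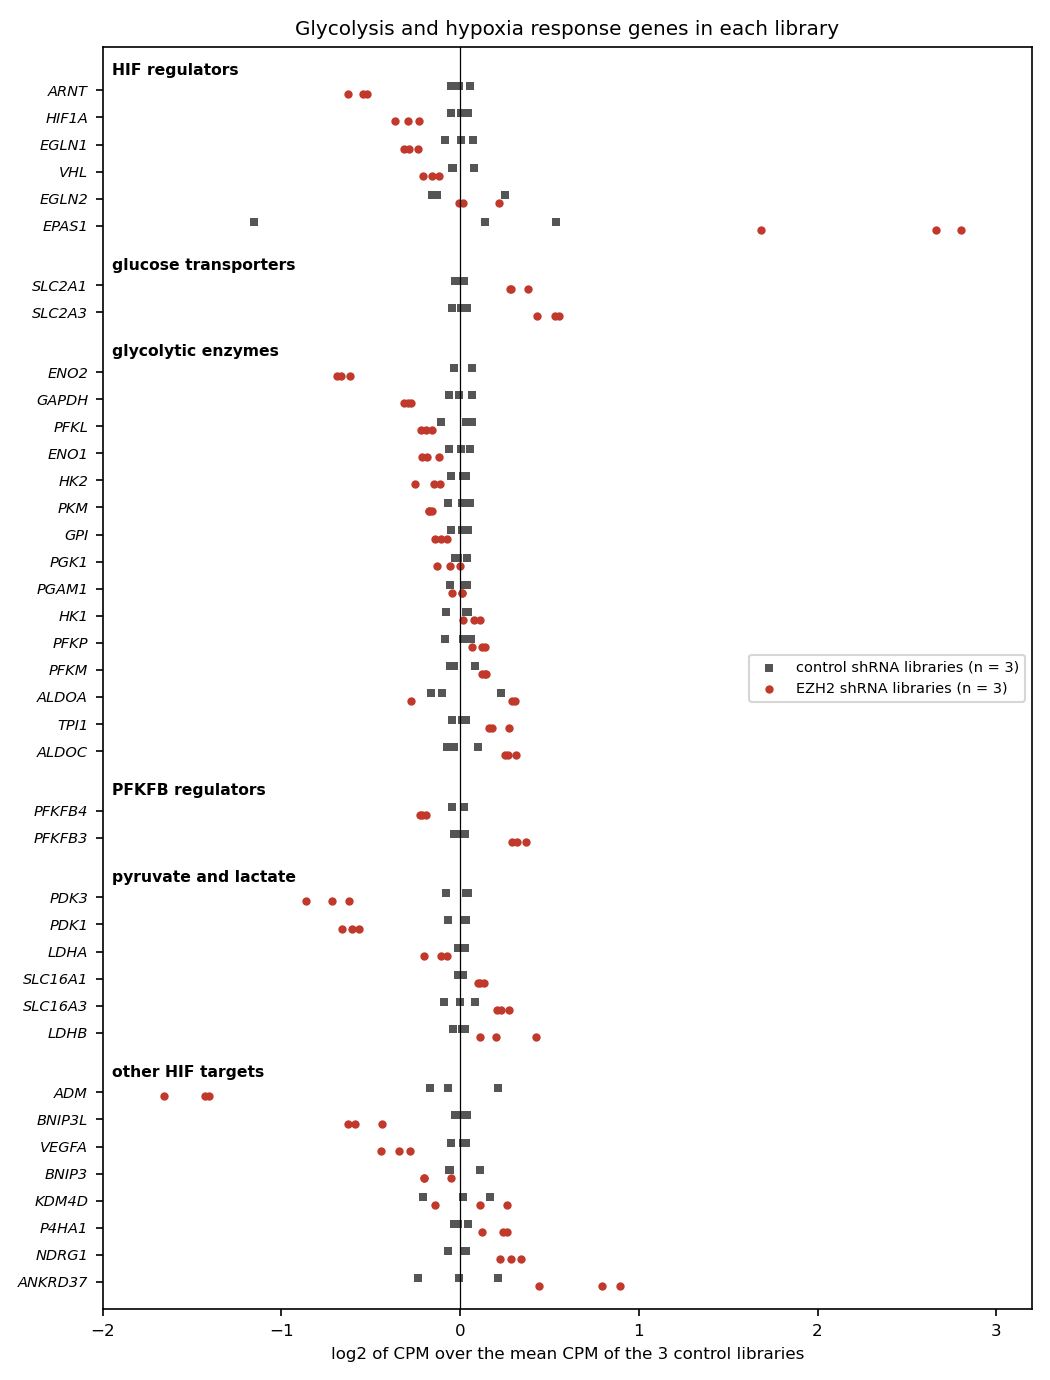
Each row is a gene and each point a library, plotted as log2 of its CPM over the mean of the 3 control libraries, with grey squares for control shRNA and red circles for EZH2 shRNA. The 2 glucose transporters lie to the right of their controls, ARNT, ENO2, PDK1, PDK3, BNIP3L and ADM lie to the left, and most glycolytic enzymes stay close to 0.

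Among the HIF regulators, the RNAs of HIF1A, its partner ARNT, the oxygen sensor EGLN1 and VHL fell, and that of EPAS1, the alternative alpha subunit, rose from near the limit of detection. HIF1A (chromosome 14, 61695513 to 61748259) was at 29.3, 30.5 and 31.3 CPM in the controls and at 24.8, 23.6 and 25.9 with EZH2 shRNA. Every EZH2 shRNA library was below every control, for a log2 fold change of -0.29 ± 0.06 (SE) and an adjusted p of 0.00042. ARNT, the subunit both alpha chains need to bind DNA, fell further, from 60.6, 58.8 and 63.5 CPM to 39.4, 41.9 and 42.5 (log2 fold change -0.56, adjusted p = 7.68e-08). EGLN1, the main prolyl hydroxylase, went from 45.1, 50.4 and 48.0 CPM to 39.2, 40.6 and 38.5, with no overlap (-0.28, adjusted p = 0.000244). VHL, the substrate receptor of the ubiquitin ligase, was 47.2 ± 2.25 CPM (SD, n = 3) in the controls and 42.3 ± 1.29 with EZH2 shRNA. Its call (-0.16, adjusted p = 0.014) ended without control replicate 4, where the adjusted p was 0.0911.

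EPAS1 (chromosome 2, 46293667 to 46386697) had 6, 6 and 2 counts in the controls and 33, 18 and 62 with EZH2 shRNA. That is 0.152, 0.115 and 0.0471 CPM against 0.663, 0.336 and 0.730, so the lowest EZH2 shRNA library lay above the highest control. Summed over libraries, the ratio was 5.75, with an exact 95% interval of 3.29 to 10.8 that covers counting error only. The fitted log2 fold change was 2.46 ± 0.47 (SE). No control library reached the filter's level, so EPAS1 was tested only through the group where it is high, and its call among the 12 that rose is no independent support. Without it, 11 of 38 rose. Per length, EPAS1 stayed a small part of the alpha subunit RNA: its share of summed HIF1A and EPAS1 FPKM was 0.36, 0.27 and 0.11% in the controls and 1.85, 0.99 and 1.95% with EZH2 shRNA. The summed alpha FPKM fell with HIF1A, from 5.90 ± 0.17 to 4.85 ± 0.24 (SD, n = 3 each).

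EGLN2, a second prolyl hydroxylase, was at 9.13, 8.97 and 11.9 CPM in the controls and at 9.94, 11.6 and 10.1 with EZH2 shRNA, and the groups overlapped (log2 fold change 0.08, adjusted p = 0.586). A read-through gene, RAB4B-EGLN2, is annotated over 99.8% of EGLN2 on its strand and is listed at 0 counts. EGLN3, the hydroxylase that HIF itself induces, had no count in any library. Neither had PDK2, a pyruvate dehydrogenase kinase, and CA9, the carbonic anhydrase often used as a hypoxia marker, had 2 counts in 1 EZH2 shRNA library and none elsewhere. A count of 0 allows up to 3 counts, which is 0.0353 to 0.0759 CPM by library. Those 3 genes could not be compared here, and whether low expression or the assignment of reads to genes left them without counts was not tested.

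The promoters below show where the core letters of the hypoxia response element, the short site that HIF binds, occur in the genes of both directions. The letters searched were ACGTG and GCGTG on either strand, which read CACGT and CACGC on the other, in the 250 bases before each RefSeq start (GRCh38.p14). Of the 42 genes, 36 have a promoter in that table and 29 of these, or 80.6%, hold a match at 1 of their starts or more, against 47.4% of 27305 genes. By start the shares were 56.1% of 66 and 43.2% of 35116, base composition not being matched. VHL, NDRG1, SLC16A1, VEGFA, SLC2A3 and BNIP3L are not in the table. Genes that rose (7 of 9), fell (13 of 15) or did not pass (7 of 9) held matches. Shown are the 3 genes of each direction with the smallest p among starts with a match and no annotated exon in the window. They read 5′ to 3′ along the gene's own strand, with matched letters in capitals.
PFKFB3 (chr10:6144671-6144920, plus strand): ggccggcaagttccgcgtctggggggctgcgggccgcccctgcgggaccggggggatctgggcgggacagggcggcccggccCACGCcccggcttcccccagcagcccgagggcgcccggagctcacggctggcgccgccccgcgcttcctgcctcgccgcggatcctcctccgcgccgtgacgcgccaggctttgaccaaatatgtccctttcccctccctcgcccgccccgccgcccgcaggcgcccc
EPAS1 (chr2:46297157-46297406, plus strand): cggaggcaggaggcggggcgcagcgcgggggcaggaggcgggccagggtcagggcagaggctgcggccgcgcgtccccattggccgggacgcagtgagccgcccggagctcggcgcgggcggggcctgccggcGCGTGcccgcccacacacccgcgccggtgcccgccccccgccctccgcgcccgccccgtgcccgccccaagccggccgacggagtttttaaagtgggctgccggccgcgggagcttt
SLC16A3 (chr17:82228792-82229041, plus strand): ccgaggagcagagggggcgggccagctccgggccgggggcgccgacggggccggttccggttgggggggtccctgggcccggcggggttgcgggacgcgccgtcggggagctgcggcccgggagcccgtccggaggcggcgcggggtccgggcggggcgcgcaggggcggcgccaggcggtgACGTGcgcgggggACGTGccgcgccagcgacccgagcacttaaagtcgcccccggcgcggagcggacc
EGLN1 (chr1:231422288-231422537, minus strand): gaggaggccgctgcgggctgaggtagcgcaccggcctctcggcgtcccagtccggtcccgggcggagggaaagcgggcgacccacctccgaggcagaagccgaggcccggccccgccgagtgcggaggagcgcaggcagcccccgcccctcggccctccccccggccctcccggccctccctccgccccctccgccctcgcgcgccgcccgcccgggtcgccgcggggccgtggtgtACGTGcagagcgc
HIF1A (chr14:61695263-61695512, plus strand): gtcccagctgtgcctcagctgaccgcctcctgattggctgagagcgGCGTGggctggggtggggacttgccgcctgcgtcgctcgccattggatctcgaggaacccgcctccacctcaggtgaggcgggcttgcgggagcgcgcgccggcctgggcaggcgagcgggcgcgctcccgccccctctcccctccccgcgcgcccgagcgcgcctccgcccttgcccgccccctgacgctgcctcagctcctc
HK2 (chr2:74834920-74835169, plus strand): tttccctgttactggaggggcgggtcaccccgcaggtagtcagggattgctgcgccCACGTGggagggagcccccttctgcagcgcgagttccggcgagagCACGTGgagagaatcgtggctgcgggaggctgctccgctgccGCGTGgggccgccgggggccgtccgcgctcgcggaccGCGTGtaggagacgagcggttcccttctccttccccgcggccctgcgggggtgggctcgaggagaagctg
The HK2 window has 6 matches, of which 4 come from a pair of CACGTG palindromes, each read once on either strand. SLC16A3 has 2 and the other 4 windows have 1 each. A match is only a run of letters and does not show that HIF binds there.

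Both glucose transporters rose. SLC2A1 (GLUT1), the widespread basal transporter, was at 70.0, 69.3 and 67.8 CPM in the controls and at 83.6, 89.8 and 84.2 with EZH2 shRNA. SLC2A3 (GLUT3), a high-affinity transporter of blood cells and neurons, went from 70.9, 69.3 and 66.8 CPM to 101, 92.9 and 99.8. Neither pair of groups overlapped. The log2 fold changes were 0.31 ± 0.04 for SLC2A1 (adjusted p = 1.25e-05) and 0.51 ± 0.04 for SLC2A3 (adjusted p = 9.90e-08). The summed FPKM of the pair, a level per length, rose 1.31-fold, from 25.9 ± 0.63 to 34.1 ± 0.08 (SD, n = 3), with SLC2A3 making up 43.7 ± 0.32% and then 47.0 ± 2.11% of it.

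Of the 15 glycolytic enzymes, all tested, 2 rose, 7 fell and 6 did not pass. Over all genes tested 23.8% were called higher and 22.9% lower, and 27.2% and 30.0% of those with a mean log2 CPM over 2. The 2 that rose act at neighbouring steps in the middle of the pathway. ALDOC, an aldolase that splits fructose 1,6-bisphosphate, was at 109, 97.1 and 99.9 CPM in the controls and at 123, 127 and 122 with EZH2 shRNA (log2 fold change 0.28, adjusted p = 9.19e-05). TPI1, which interconverts the triose phosphates that aldolase makes, went from 669, 632 and 658 CPM to 789, 729 and 738 (0.20, adjusted p = 0.00121). In both genes every EZH2 shRNA library was above every control. With the chromosome median of 0.15 removed ALDOC was at 0.13 (adjusted p = 0.0318), and with neighbour medians removed ALDOC was at 0.17 and TPI1 at 0.12 (adjusted p = 0.00690 and 0.0331).

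The enzymes that fell include the one with the highest level per length, GAPDH, at 2884 ± 138 FPKM in the controls (SD, n = 3). GAPDH, which makes 1,3-bisphosphoglycerate and NADH, was at 7252, 6620 and 6892 CPM in the controls and at 5709, 5558 and 5644 with EZH2 shRNA, 81.4% of the control mean (log2 fold change -0.30 ± 0.05, adjusted p = 0.000131). Its neighbour on chromosome 12, the enolase gene ENO2, showed the largest fall of the 15, from 32.8, 32.8 and 35.1 CPM to 21.1, 21.9 and 20.8 (-0.66 ± 0.06, adjusted p = 6.02e-08). TPI1, GAPDH and ENO2 lie between 6534512 and 6923698 on that chromosome, where the median of the nearest 40 genes was 0.08 to 0.10, so genes a short distance apart went in opposite directions. ENO1, the main enolase, fell from 3021 ± 125 to 2681 ± 87.9 CPM (SD, n = 3; -0.17, adjusted p = 0.00804). Its adjusted p was 0.0593 without control replicate 3 and 0.0522 without EZH2 shRNA replicate 4.

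PKM, pyruvate kinase, fell from 1043, 956 and 1009 CPM to 901, 888 and 888 (log2 fold change -0.17, adjusted p = 0.00477). PFKL, the liver-type subunit of phosphofructokinase, fell from 344, 312 and 351 CPM to 288, 301 and 294 (-0.19, adjusted p = 0.00284). HK2, the inducible hexokinase, fell from 150, 142 and 148 CPM to 123, 135 and 132 (-0.17, adjusted p = 0.0042). Groups did not overlap for any of these 3. HK2 lies on chromosome 2, where most genes were lower, and turned to 0.12 (adjusted p = 0.0293) with the chromosome median and 0.083 with the neighbour median removed. GPI, which makes fructose 6-phosphate, had the least firm call, at 518 ± 17.5 against 481 ± 11.3 CPM (-0.11, adjusted p = 0.0467), and lost it without control replicates 3 or 5 or EZH2 shRNA replicates 3 or 4 (adjusted p = 0.0506 to 0.194). With the chromosome median removed it was at -0.18.

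The other 6 enzymes did not pass. HK1, the constitutive hexokinase, had a log2 fold change of 0.07 and PFKM, the muscle-type phosphofructokinase, of 0.13, at 5.22 and 2.69 CPM in the controls. PFKP, the platelet-type subunit, was at 73.4 ± 3.71 and 79.3 ± 2.12 CPM without overlap (0.11, adjusted p = 0.055). PGK1, which makes the first ATP of the pathway, gave -0.06 and PGAM1, which shifts the phosphate of 3-phosphoglycerate, -0.01. ALDOA, the ubiquitous aldolase, gave 0.13 ± 0.18. Without EZH2 shRNA replicate 1, PGK1 passed as lower (-0.10, adjusted p = 0.0370) and PFKP (0.12, adjusted p = 0.0297) and ALDOA (0.28, adjusted p = 0.0309) as higher, and PFKP also passed without control replicate 3 (0.14, adjusted p = 0.0455).

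Some of these levels depend on how reads were shared between overlapping or copied genes. AC093512.2 is annotated on the same strand over 99.4% of ALDOA and holds 1586 counts in all, beside 3884 for ALDOA, so ALDOA's low level in this table, 2.85 FPKM, cannot be read as its expression. AC005726.1 covers all of ALDOC and holds 1323 counts beside 36877. Processed pseudogenes hold 43.9% as many counts as LDHB, 41.3% as BNIP3, 26.1% as PGAM1 and 14.4% as TPI1, and 6.89% or less for the other copied genes. With those counts added, LDHB was at 0.22 and the direction of every tested gene with copies stayed. PGAM4, an intronless PGAM1 copy inside the span of PGK1, holds 10743 counts beside 26313 for PGAM1, and adding it with the other copies gave -0.06 (adjusted p = 0.301).

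**Figure D2:**
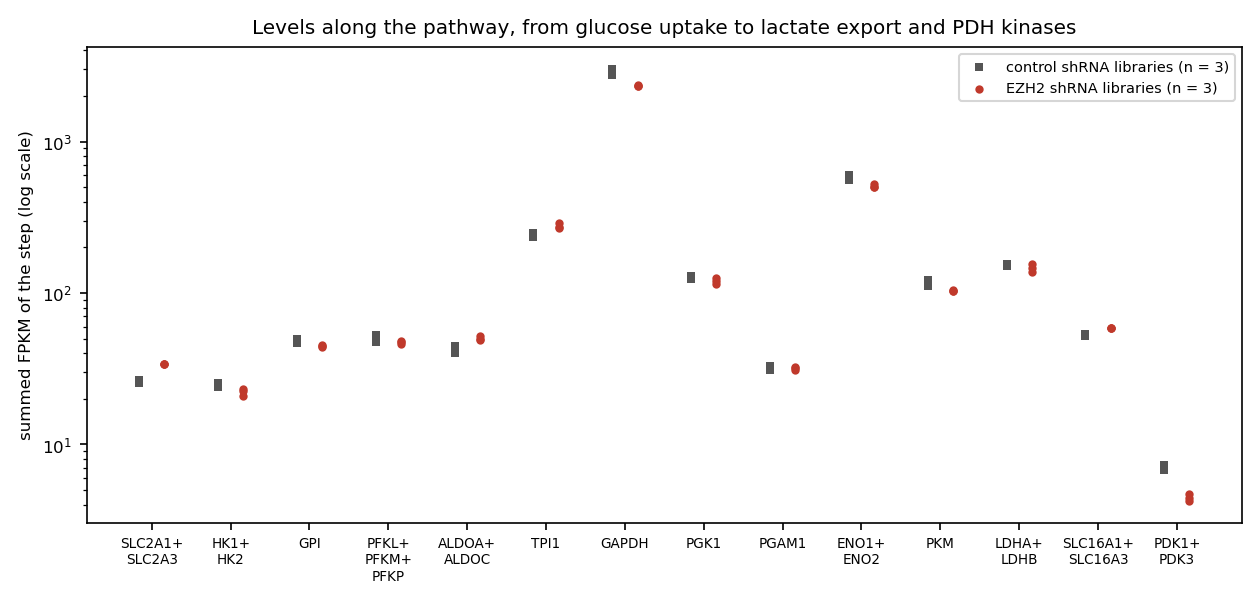
Points are the summed FPKM of each step in each library on a log scale, ordered from glucose uptake through the enzymes to lactate, its export, and the pyruvate dehydrogenase kinases, with grey squares for control shRNA and red circles for EZH2 shRNA. The glucose transporters and aldolases sit higher with EZH2 shRNA, GAPDH, enolase and the PDK genes lower, and GAPDH is far above the rest.

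Summed per step on the FPKM scale, the levels moved apart along the pathway. EZH2 shRNA was at 0.889 of control for the hexokinases (nearly all HK2, with the chromosome 2 shift in it), 0.924 for GPI, 0.926 for the phosphofructokinases, 1.198 for the aldolases and 1.15 for TPI1. Further down it was at 0.810 for GAPDH, 0.953 for PGK1, 0.989 for PGAM1, 0.879 for the enolases and 0.885 for PKM. Lactate dehydrogenase was at 0.957. So uptake, aldolase and TPI1 lay above control and these other steps below it, with overlapping libraries for phosphofructokinase, PGK1, PGAM1 and lactate dehydrogenase. The aldolase sum holds the uncertain ALDOA value.

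The 2 PFKFB enzymes, which make and remove fructose 2,6-bisphosphate, the strong activator of phosphofructokinase, went in opposite directions. PFKFB3, the isoform with the highest kinase activity, was at 37.1, 35.5 and 36.6 CPM in the controls and at 45.4, 46.9 and 44.6 with EZH2 shRNA (log2 fold change 0.33 ± 0.05, adjusted p = 2.59e-05). PFKFB4 went from 30.5, 30.6 and 29.1 CPM to 26.4, 25.9 and 25.7 (-0.21 ± 0.05, adjusted p = 0.00357). Neither pair overlapped. PFKFB3's share of their summed FPKM was 54.9, 53.7 and 55.7% in the controls and 63.2, 64.4 and 63.4% with EZH2 shRNA, the largest difference of any share measured, at 8.91 percentage points.

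Genes of pyruvate and lactate handling also split, 3 higher and 3 lower, against 23.8% higher and 22.9% lower over all genes tested. The kinases that switch off pyruvate dehydrogenase fell most. PDK1 (chromosome 2, 172555373 to 172608669) was at 46.8, 47.0 and 43.7 CPM in the controls and at 30.1, 29.0 and 31.0 with EZH2 shRNA (log2 fold change -0.61 ± 0.05, adjusted p = 5.77e-08). PDK3, on the X chromosome, went from 57.0, 56.7 and 52.3 CPM to 30.4, 33.7 and 35.9 (-0.73 ± 0.06, adjusted p = 5.86e-08). Every EZH2 shRNA library was below every control in both genes, and their summed FPKM was at 0.622 of control. That sum holds the chromosome 2 shift through PDK1. With neighbour medians removed, PDK1 was at -0.26 and PDK3 at -0.75.

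LDHA fell slightly and LDHB rose, but neither call held in every setting. LDHA, the muscle-type subunit and a classic HIF target, was at 781, 760 and 760 CPM in the controls and at 730, 666 and 712 with EZH2 shRNA. Its small fall (log2 fold change -0.13, adjusted p = 0.0276) lost its call without any of the 3 controls or EZH2 shRNA replicate 4 (adjusted p = 0.0506 to 0.11). With the medians of chromosome 11 or of its neighbours removed it turned to 0.14 or 0.21, the direction of LDHB. LDHB, the heart-type subunit, rose from 78.9, 75.4 and 77.9 CPM to 104, 83.5 and 88.9 (0.25 ± 0.07, adjusted p = 0.0109). EZH2 shRNA replicate 1 was the highest, and without it the log2 fold change was 0.15. With its pseudogene counts added the call ended (adjusted p = 0.127). LDHB's share of lactate dehydrogenase FPKM was 17.0, 16.7 and 17.2% against 22.3, 20.2 and 20.2%.

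The monocarboxylate transporters that carry lactate across the membrane both rose a little. SLC16A1 (MCT1) went from 196 ± 1.87 to 213 ± 2.38 CPM (SD, n = 3; log2 fold change 0.12, adjusted p = 0.0165), a call that ended without control replicates 4 or 5 or EZH2 shRNA replicate 4 (adjusted p = 0.0571 to 0.0626). SLC16A3 (MCT4), the export form, was at 146, 155 and 137 CPM in the controls and at 169, 176 and 171 with EZH2 shRNA (0.24, adjusted p = 0.000369). The 40 genes nearest SLC16A3 had a median of 0.34, above its own change, and with that median removed its value was -0.10 (adjusted p = 0.073). With the median of chromosome 17 removed it was at 0.086 (adjusted p = 0.138). CSNK1D lies on the opposite strand over 67.5% of SLC16A3 and holds 45578 counts beside 52145. The kit marks strand, but whether the counting used it is not known here.

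The remaining HIF targets moved both ways as well: of 8 tested, 3 rose, 3 fell and 2 did not pass. The shares over all genes tested were 23.8% higher and 22.9% lower. ADM, the vasodilator peptide adrenomedullin, had the largest fall of all 39 genes. It was at 1.47, 1.57 and 1.91 CPM in the controls and at 0.622, 0.522 and 0.612 with EZH2 shRNA (log2 fold change -1.49 ± 0.22, adjusted p = 2.62e-05). VEGFA, the main angiogenic growth factor, fell from 193, 202 and 205 CPM to 147, 165 and 158 (-0.35, adjusted p = 6.14e-06). BNIP3L, a mitophagy receptor, fell from 32.8, 32.3 and 33.8 CPM to 24.3, 21.9 and 21.4 (-0.55, adjusted p = 1.09e-06). The groups did not overlap in these 3 genes. BNIP3, its paralogue, was at 21.8 ± 1.54 and 19.6 ± 1.22 CPM (-0.15, adjusted p = 0.0825). Without EZH2 shRNA replicate 1 it passed as lower (-0.21, adjusted p = 0.0182). Its share of their summed FPKM was 33.2, 36.2 and 32.4% in the controls and 40.3, 40.2 and 40.8% with EZH2 shRNA. Processed pseudogenes hold 41.3% as many counts as BNIP3, and this share was not recomputed with them added.

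NDRG1, a stress-induced gene, rose from 47.4, 47.2 and 44.1 CPM to 54.1, 56.4 and 58.5 (log2 fold change 0.28, adjusted p = 0.000122). P4HA1, a collagen prolyl hydroxylase, rose from 57.9, 55.8 and 54.8 CPM to 67.3, 61.3 and 66.4 (0.21, adjusted p = 0.0014), and by 0.34 with the neighbour median removed. ANKRD37, a small ankyrin-repeat gene, rose from 1.52, 1.76 and 1.30 CPM to 2.07, 2.84 and 2.65 (0.72 ± 0.18, adjusted p = 0.00288). Again no groups overlapped. UFSP2 lies on the opposite strand over 23.7% of ANKRD37 and holds 4213 counts beside 687 for ANKRD37. Whether the counting used strand is not known here, so the ANKRD37 level may hold reads of UFSP2. KDM4D, a histone H3 lysine 9 demethylase, stayed under 1 CPM and overlapped (0.11, adjusted p = 0.747).

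**Figure D3:**
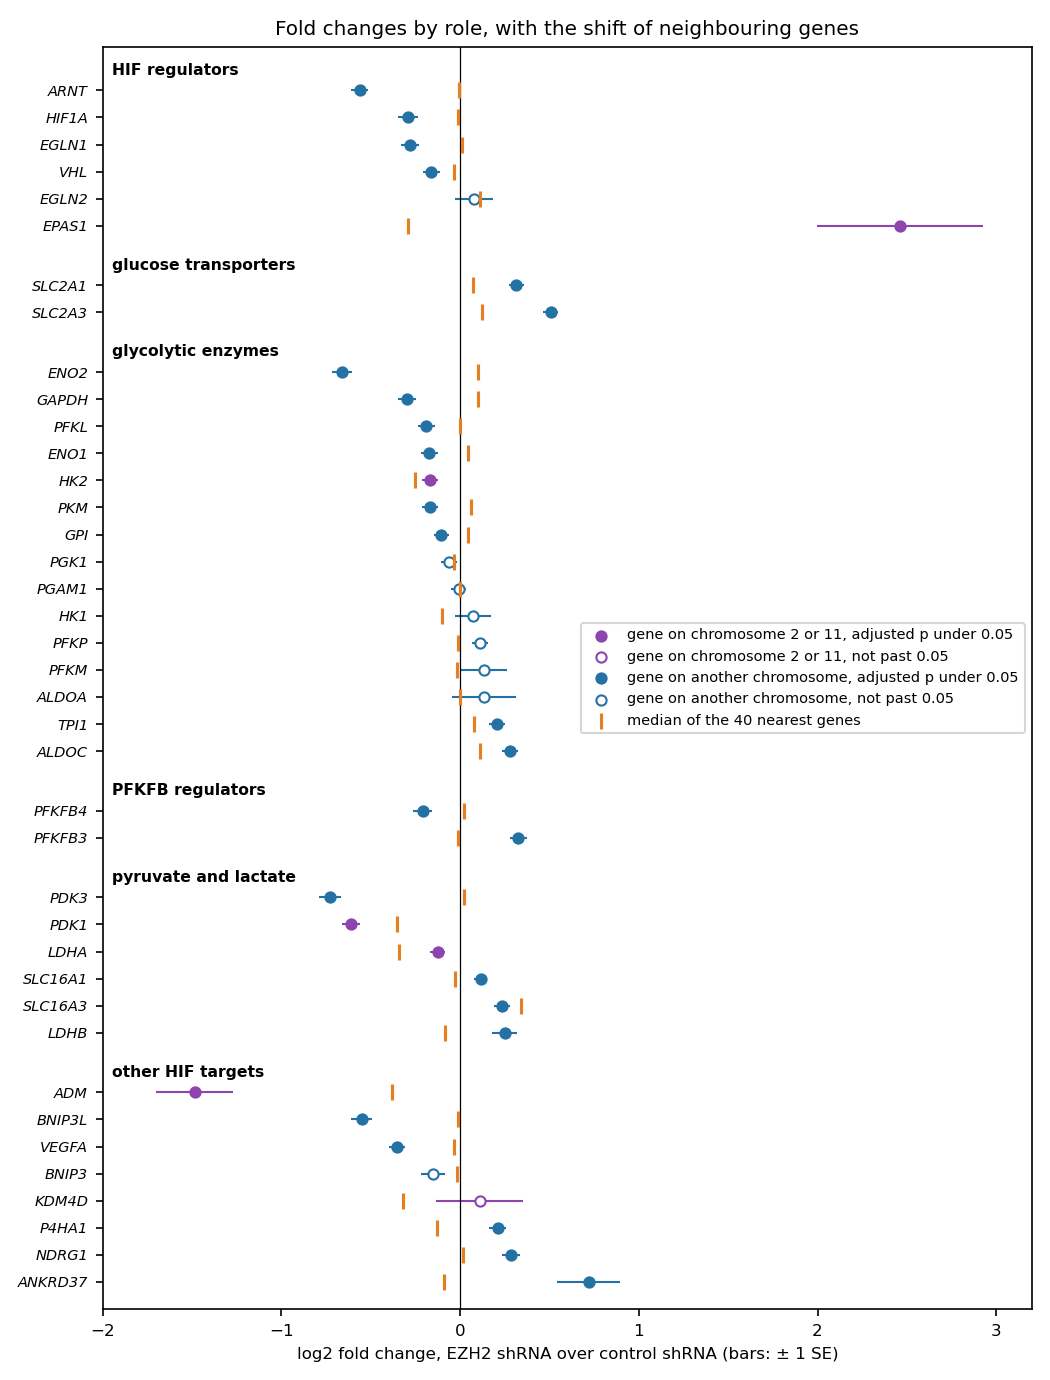
Points are log2 fold changes of EZH2 shRNA over control with bars of 1 SE, filled where the adjusted p was under 0.05, purple for genes on chromosomes 2 and 11 and blue elsewhere. The orange mark is the median log2 fold change of the 40 nearest genes, which lies between -0.25 and -0.38 for the 6 genes on chromosomes 2 and 11 and near 0 for most others.

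Genes of chromosomes 2 and 11 were shifted down as a body, which bears on 6 of the 42. There, 9.86% of genes tested were called higher and 49.1% lower, with a median log2 fold change of -0.24, while on the other chromosomes 25.6% were called higher and 19.4% lower, with a median of 0.03. Of the 6, EPAS1 rose, HK2, PDK1, LDHA and ADM fell, and KDM4D did not pass, with a median of -0.15. The 33 tested elsewhere gave 11 higher and 14 lower, with a median of -0.01. The cause of this shift was not tested.

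Set against their neighbourhoods, the 6 genes separate. Around HK2 (chromosome 2, 74833981 to 74893359) the nearest 40 genes had a median of -0.25, and with it removed HK2 was at 0.083 (adjusted p = 0.136). With the chromosome's median removed it was at 0.12 (adjusted p = 0.0293). LDHA (chromosome 11, 18394560 to 18408425) changed sign too, to 0.21 with the neighbour median of -0.34 removed (adjusted p = 0.000836) and to 0.14 with the chromosome's (adjusted p = 0.0155). PDK1 remained lower, at -0.26 against neighbours (adjusted p = 0.000626) and -0.32 against the chromosome. ADM (chromosome 11, 10305073 to 10307397) remained lower at -1.10 (adjusted p = 0.000538) and -1.22. EPAS1 was higher by 2.75 under either. KDM4D was at 0.43 against neighbours (adjusted p = 0.165). Over all 39 genes, 26 of the 30 calls held in the same direction with the neighbour median removed, and among the 33 elsewhere the changes of ARNT, SLC2A3, ENO2, PDK3, BNIP3L and VEGFA were -0.56, 0.38, -0.76, -0.75, -0.54 and -0.32.

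**Figure D4:**
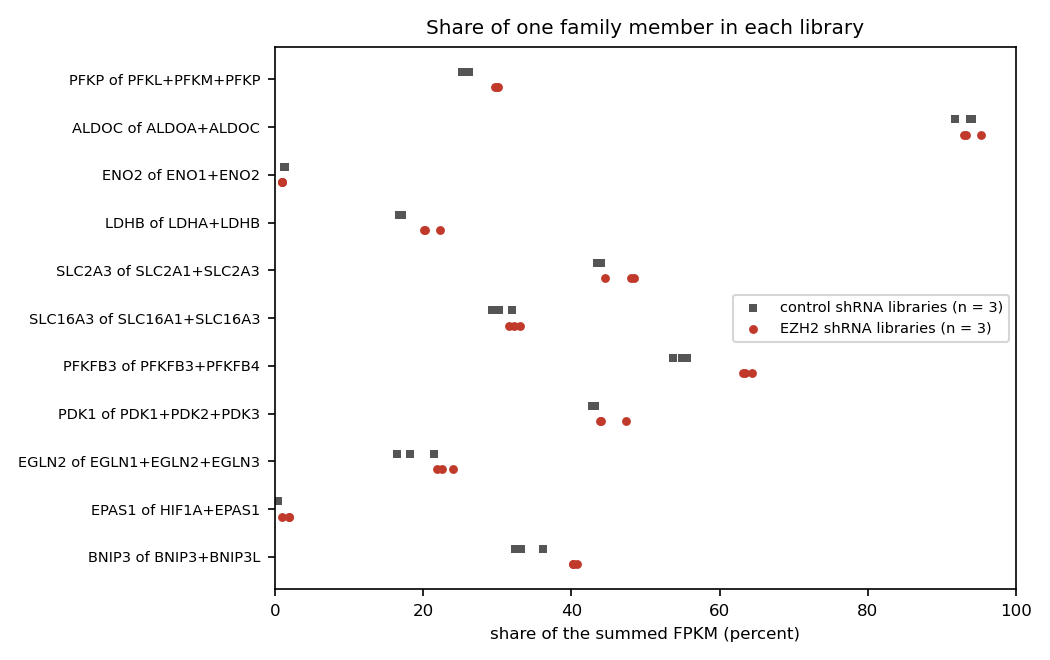
Each row is the share of a family's summed FPKM taken by the gene named first, in percent, with grey squares for the 3 control libraries and red circles for the 3 EZH2 shRNA libraries. Groups are apart for PFKFB3, BNIP3, PFKP and LDHB, while the ALDOC and SLC16A3 shares overlap. Pseudogene counts, 41.3% as many as BNIP3's and 43.9% as many as LDHB's, are not added to these shares.

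The makeup of each enzyme family is independent of sample scaling, since it is a ratio within a library. It is not independent of the shift of chromosomes 2 and 11. HK2, PDK1 and EPAS1 on chromosome 2 and LDHA on chromosome 11 each share a family with a gene elsewhere. Of 16 shares tested, 14 had groups that did not overlap, which gives the exact two-sided permutation test its smallest possible p with 3 against 3 libraries, 0.1 (0.114 adjusted over the 16), so none could pass 0.05. The 16 come from 12 families and are not independent: PDK1 with PDK3 and EGLN1 with EGLN2 are mirror images here, and the 3 phosphofructokinase shares sum to the whole. By family, 10 of 12 did not overlap, among them the hexokinase, PDK, lactate dehydrogenase and HIF alpha families, whose shares hold that chromosome shift. For single genes, the CPM of the groups did not overlap for 54.9% of all genes tested. The like figure for shares of other gene pairs was not computed, so these counts are not shown to be particular to these families. PFKP's share of phosphofructokinase FPKM was 25.8 ± 0.54% in the controls and 30.0 ± 0.21% with EZH2 shRNA, and PFKL's 73.4 ± 0.59% and 69.2 ± 0.21%. EGLN1 made up 81.3 ± 2.56% and 77.2 ± 1.10% of prolyl hydroxylase FPKM. Hexokinase was nearly all HK2, at 96.7 ± 0.06% and 96.1 ± 0.07%, and enolase nearly all ENO1, with ENO2 at 1.35 ± 0.07% and 0.97 ± 0.05%. PDK1 took 43.0 ± 0.22% and 45.1 ± 2.00% of the PDK sum. ALDOC's share (93.2 ± 1.23% and 93.8 ± 1.23%, p = 0.6, exact permutation), which rests on the ALDOA value that cannot be read as expression, and SLC16A1's (69.5 ± 1.37% and 67.7 ± 0.71%, p = 0.2, exact permutation) overlapped.

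Other genes around the pathway, from lists that leave out the 42, were mixed in the same way. For comparison, 23.8% of all genes tested were called higher and 22.9% lower. In the HIF pathway 10 of 12 were tested, with 2 higher and 4 lower. CITED2, which competes with HIF for its coactivators and is itself a HIF target, rose from 235 ± 12.7 to 327 ± 12.4 CPM (log2 fold change 0.48). SIAH2, a ubiquitin ligase for EGLN proteins, rose by 0.17 and RBX1, a subunit of the VHL ligase, fell by 0.15. Of 25 of 32 other HIF targets tested, 10 rose and 8 fell, led by PLOD1, a collagen lysyl hydroxylase, at 0.79, STC2, a secreted glycoprotein, at -0.73 and DDIT4, an inhibitor of mTORC1, at -0.47. With chromosome medians removed, 8 of these targets were called higher and 7 lower.

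Of 10 tested of 11 genes of pyruvate entry into mitochondria, 6 fell and 1 rose, against 22.9% lower over all genes, 30.0% among those with a mean log2 CPM over 2 and 49.1% on chromosomes 2 and 11. DLAT and PDHX, of the pyruvate dehydrogenase complex, were at -0.50 and -0.35, and MPC2, of the mitochondrial pyruvate carrier, at -0.33. DLAT and PDHX lie on chromosome 11, and with that chromosome's median removed they were at -0.23 and -0.08 (adjusted p = 0.279 for PDHX). In the pentose phosphate pathway 0 of 6 rose and 3 fell by edgeR's test: RPE (-1.05, chromosome 2), TALDO1 (-0.19, chromosome 11) and PGD (-0.11). TALDO1 was at 0.08 with the chromosome's median removed (adjusted p = 0.145).

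Of 20 further genes of glycolysis and glucose entry, 8 were tested, with 3 higher and 2 lower. Over all genes tested the shares were 23.8% and 22.9%. PGM1, which links glycogen to glycolysis, was at -0.31 and PGAM5, a mitochondrial phosphatase named for its similarity to phosphoglycerate mutase, at 0.24. FBP1, the gluconeogenic fructose bisphosphatase, had 1 count in the controls and 67 with EZH2 shRNA, a ratio of 47.7 with an exact 95% interval of 8.27 to 1912 for counting error. No control library reached the filter's level, so FBP1, like EPAS1, was tested only through the group where it is high. Its call among the 3 that rose is no independent support. Glucose-responsive genes gave 1 higher and 2 lower of 4 tested. TXNIP, which restrains glucose uptake at the membrane, fell (-0.36), as did its relative ARRDC4 (-0.23), while MLXIP, the glucose sensor that induces both, rose (0.17).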

How the data were processed

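Messenger RNA of 6 libraries, 3 with control shRNA and 3 with EZH2 shRNA, was sequenced by the authors with 50-base single reads from a stranded kit, per the labels' protocols. Tools listed in the submitters' processing notes are DESeq2 1.24.0, R 3.6.1, STAR 2.5.2b and Picard 2.18.24, with GRCh38 as the build. How reads were assigned to genes, and whether by strand, is not given in the sources used here. The authors deposited whole-number counts per gene, not normalized, and FPKM values. The deposited FPKM were proportional to counts over a library factor for 29060 of the 29060 genes with a count (relative tolerance 1e-04). Groups come from the labels, and no 2 libraries of a group agreed within sampling noise (chi-square per degree of freedom 3.11 to 17.4). Because nothing says they are separate cultures, the spread behind each p-value may be only technical.

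Counts were tested with edgeR 4.0.16 (R 4.3.3, TMM, filterByExpr, robust quasi-likelihood fit of the group alone), and p-values were Benjamini-Hochberg adjusted over 16859 genes with a threshold of 0.05. The script was tested on simulated data. CPM use TMM-scaled library sizes, and SE is the log2 fold change over the root of the test's F. Shares and steps use FPKM. Chromosome and neighbour medians use genes with a mean log2 CPM over 2, at least 40 a chromosome or the 40 nearest. Gene spans are the locations deposited with the counts. Annotated exons in the promoter windows are from GENCODE v44 (GRCh38). Alternatives were other normalizations (DESeq2 1.42.0 among them), filters, log2(FPKM + 1 or + 0.1) with limma 3.58.1, a replicate block, leaving out each library, removing medians, and adding pseudogene counts. The genes and all lists were chosen with earlier results of these data known. All 42 genes are accounted for. From each other list up to 3 genes are named, those with the smallest p among the called. Promoters are those of the 3 genes of each direction with the smallest p among starts with a match and no annotated exon. PGLS was not analysed here.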

Additional observations from a re-analysis of the deposited data

How the results depend on the processing

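Across 18 alternatives, 22 of the 30 calls kept their direction and side of the threshold in each, 25 of the 30 did so without each library in turn, and 3 genes changed sign in at least 1: HK2 (0.12 with the chromosome median and 0.083 with the neighbour median removed), LDHA (0.14 and 0.21) and SLC16A3 (-0.10, neighbour median). Genes called higher ranged from 11 to 14 and lower from 15 to 20. Requiring 1 CPM in 3 libraries left out EPAS1, so that 0 HIF regulators and 0 of the genes on chromosomes 2 and 11 were higher by edgeR's test. In the latter, 3 were higher and 2 lower with chromosome medians removed, and 2 higher and 2 lower with neighbour medians removed. Glycolytic enzymes called higher numbered 4 with chromosome medians removed, and 2 to 4 when each library was left out, the 4 being without EZH2 shRNA replicate 1, where ALDOA and PFKP passed as higher. PGK1 and BNIP3 passed there as lower. Pentose phosphate genes called higher numbered 2 with chromosome medians removed. SLC16A3 was at 0.09 (adjusted p = 0.138) there, and VHL at -0.12 (adjusted p = 0.0527) with the neighbour median removed. Apart from the replicate block, no other setting moved these counts by more than 1.5 times, and the cause of these changes was not tested beyond the setting itself.

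Replicates 3 and 4 share numbers across groups. Deviations of same-numbered libraries correlated at 0.07 and 0.08, above all other pairs across groups, which ran from -0.07 to 0.04. All these values were small, so the libraries were not taken as pairs. A fit with the replicate number as a block, which leaves 1 residual degree of freedom, gave 2 HIF regulators and 4 glycolytic enzymes as higher, added EGLN2 (0.26), PFKP, ALDOA and BNIP3 (-0.24), and took away GPI and SLC16A1 (adjusted p = 0.0552 and 0.0569). On log2(FPKM + 1), EPAS1, ADM and ANKRD37 shrank to 0.088, -0.45 and 0.33 and kept their calls. Depth limits EPAS1, ADM, ANKRD37, KDM4D and PFKM, which stay under 3 CPM in every library. EGLN3, PDK2 and CA9 could not be compared, for a reason that was not tested.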
